A study of Mus musculus with 6 samples.

Results

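Cytotoxic T and NK cells of the C3(1)-Tag mouse mammary gland were 120 of the 22244 cells kept over 6 single-cell RNA-seq libraries. A kept cell had at least 200 genes and under 10% mitochondrial UMIs, a UMI (unique molecular identifier) being a count of 1 captured RNA molecule. Members were chosen by measured values. They had a UMI of Nkg7, a UMI of Gzma, Gzmb, Prf1, Ctsw, Klrd1 or Ncr1, a UMI of Ptprc, Cd3e or Klrd1, and no UMI of C1qa, Epcam or Cd79a, which mark macrophages, epithelium and B cells. Cells with a UMI of Cd3d, Cd3e or Cd3g were called Cd3-positive (65 cells) and the others Cd3-negative (55 cells). The genes of this rule are therefore described and were not tested.

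All libraries came from female FVB/NJ mice that carried the C3(1)-Tag transgene, in which a promoter fragment of a rat prostate steroid-binding protein gene drives SV40 large T antigen in mammary epithelium. Each state had 2 libraries. Prepuberty was the whole mammary gland at 5 weeks, DCIS (ductal carcinoma in situ) the whole gland at 14 weeks, and Tumor a palpable mammary tumour taken after 18 weeks. No gland without the transgene was analysed here. The labels do not say that the libraries of a state came from different animals, so the p-values measure the spread between libraries, which may be technical. The study's methods name another dissociation kit for the tumours and version 3 chemistry for Tumor 2, whereas the labels give the same digestion and version 2 kit throughout, so dissociation and chemistry cannot be told apart from state and library. T antigen itself had a UMI in 1 cytotoxic cell of each tumour library.

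Cytotoxic lymphocytes kill target cells by releasing granules. Perforin (Prf1) opens the target membrane and granzymes (the Gzm genes) are proteases that enter and start cell death. CD8 T cells recognise peptide on MHC class I through the T-cell receptor and the CD3 chains that signal for it, whereas NK cells use germline-encoded receptors such as NKp46 (Ncr1) and lectin-like receptors of the Klr family, many of which signal through the adaptors DAP12 (Tyrobp) and the Fc receptor gamma chain (Fcer1g). In mammary tumours both cell types are studied for their part in tumour control and in the response to checkpoint antibodies. Several of these genes lie in 2 regions of mouse chromosome 6 in the GRCm38 assembly, with Cd8b1 (chr6:71322788-71337494) and Cd8a (chr6:71373427-71379173) as neighbours in the first, and Klrb1b (chr6:128813706-128826331), Klre1 (chr6:129577905-129585827) and Klrd1 (chr6:129591782-129598775) in the NK gene complex. Ncr1 (chr7:4337724-4345164) and Nkg7 (chr7:43437073-43438249) are on chromosome 7.

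The 6 markers that name these cells, Nkg7, Gzmb, Prf1, Ctsw, Klrd1 and Ncr1, all belong to the rule, so their levels describe the choice and are no check of the label. In the order Prepuberty 1, Prepuberty 2, DCIS 1, DCIS 2, Tumor 1 and Tumor 2, the number of them with UMIs was 3, 5, 5, 2, 6 and 6, and their summed level was 2033, 1763, 760, 2230, 3006 and 5313 CPM, CPM being UMIs per 1000000 UMIs of the same cells. In DCIS 1 the sums of 5 fibroblast markers (4135 CPM) and of 5 epithelial keratins (1941 CPM) were above that of these 6, mostly through single cells, with all 119 UMIs of Dcn in 1 cell and 46 of the 49 of Krt18 in 1 cell. In the other libraries those lists summed to at most 185 CPM. Of the markers of other cells that the rule did not use, neutrophil and mast cell genes had at most 1 UMI in either tumour library, 7 macrophage markers had 14 and 7 UMIs with Csf1r and Adgre1 at 0, and the B cell genes Cd79b and Ms4a1 were at 0. Ighm, the heavy chain of immunoglobulin M, had 19 UMIs in each tumour library, and Jchain, which joins immunoglobulin units, had 0 and 3. Dendritic cell markers stood out in Tumor 1 (290 of 131054 UMIs, against 23 in Tumor 2), through 1 Cd3-positive cell of Tumor 1 with 15728 UMIs, which held 139 UMIs of Cd74, 52 of H2-Aa and 392 of Cst3, genes of antigen-presenting cells, beside 9 UMIs of Nkg7 and 11 of the Cd3 genes. Whether free RNA supplied genes of the rule was not tested. In fibroblasts Gzmb, Prf1 and Ncr1 had no UMI in any library, and the share of fibroblasts with Nkg7 ran from 0% to 1.96%, although their median depth was over that of the cytotoxic cells in every library.

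Of the 120 cells, 27 had a single Nkg7 UMI, 31 had only 1 of the effector genes, at any number of UMIs, and 17 met both descriptions. Just outside the rule stood 22 cells with Nkg7 and no effector gene, 13 with at least 2 effector genes and no Nkg7 (those with 1 were not counted), 29 removed by C1qa, Epcam or Cd79a (19 of them in Tumor 1), and 13 with neither Ptprc, Cd3e nor Klrd1. The cells were shallow. Their median depth per library lay between 897 and 2705 UMIs, against 6624 to 13745 over all kept cells, so a gene at 0 in a cell may be expressed below detection. Libraries shared between 8 and 35 barcodes of kept cells pairwise, and no barcode was cytotoxic in more than 1 library.

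Most cytotoxic cells, 100 of 120, came from the Tumor libraries. Prepuberty 1 held 2, Prepuberty 2 held 8, DCIS 1 held 9, DCIS 2 held 1, Tumor 1 held 44 and Tumor 2 held 56. As a share of kept cells these were 0.0456%, 0.222%, 0.284%, 0.0250%, 0.983% and 2.15% in the same order. The tumour libraries were above all others, with exact (Clopper-Pearson) 95% intervals of 0.715% to 1.32% and 1.63% to 2.78% that cover counting error only, and the highest bound outside the tumours was 0.539%. In edgeR's quasi-likelihood test on cell numbers, with Benjamini-Hochberg adjustment over the cell classes, the Tumor to Prepuberty ratio was 3.54 on the log2 scale (SE 1.30, adjusted p = 0.0513) and the Tumor to DCIS ratio 3.35 (SE 1.29, adjusted p = 0.135), so neither passed the threshold of 0.05. Without Prepuberty 2 the first was 4.99 and passed (adjusted p = 0.0436), and the second ran from 2.44 to 5.79 when each library was left out and never passed. DCIS and Prepuberty overlapped (0.19, SE 1.29, adjusted p = 0.887). With 2 libraries a state, an exact permutation test of a single value cannot go below 0.333.

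**Figure D1:**
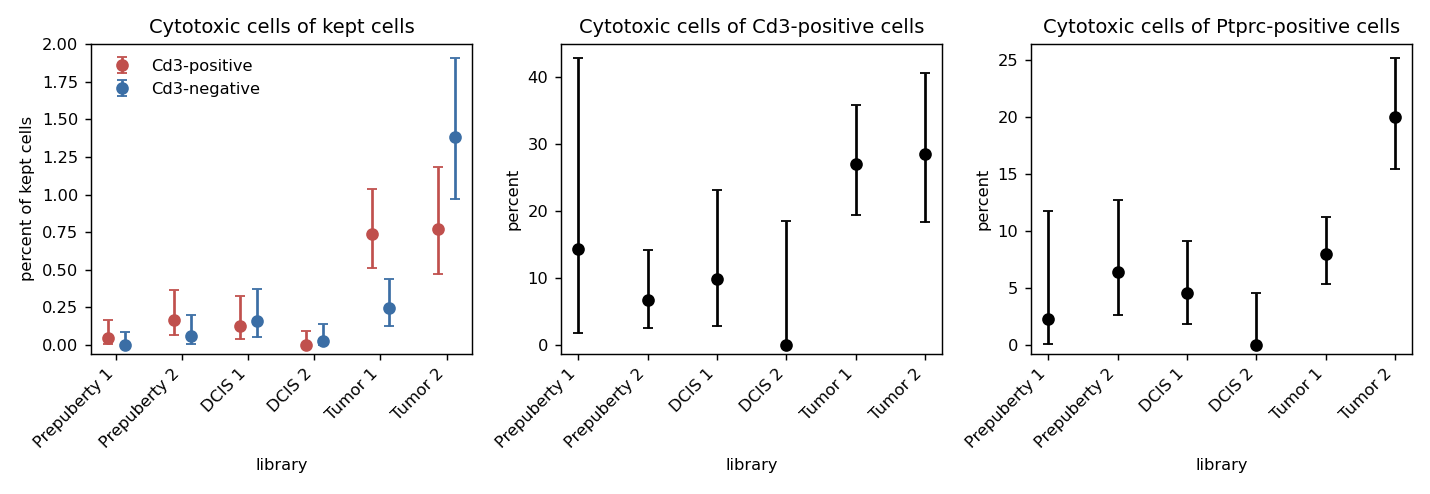
Cytotoxic cells in each library (x axis) as a percent of all kept cells by Cd3 class (left), of the Cd3-positive cells compared (middle) and of Ptprc-positive cells (right). Points are 1 library each and bars are exact 95% binomial intervals for counting error. Both tumour libraries sit at 27.0% and 28.6% of Cd3-positive cells, and the others between 0% and 14.3%.

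The 2 tumour libraries held the Cd3 classes in different proportions. In the same order of libraries, Cd3-positive cytotoxic cells numbered 2, 6, 4, 0, 33 and 20, and Cd3-negative cells 0, 2, 5, 1, 11 and 36. Cd3-positive cells made up 75.0% of the cytotoxic cells of Tumor 1 (95% interval 59.7% to 86.8%) and 35.7% of those of Tumor 2 (23.4% to 49.6%). These intervals cover counting error within 1 library each, so they compare the libraries and not tumours in general. The split also rests on the Cd3 cut, and with UMIs of Trac, Trbc1 or Trbc2 counted as well 43 of 44 and 52 of 56 cells were positive. The 2 libraries differed much less in Cd3-positive cells per kept cell (0.737% and 0.767%) than in Cd3-negative ones (0.246% and 1.38%). For Cd3-negative cells the Tumor to Prepuberty ratio was 4.78 (log2, SE 1.64) and passed the edgeR test (adjusted p = 0.0468), but it did not pass without any 1 of the 6 libraries (adjusted p between 0.0519 and 0.153, ratios from 3.09 to 7.90). For Cd3-positive cells it was 2.81 (SE 1.30, adjusted p = 0.0923), and 2.15 to 3.95 when each library was left out. Whether the classes changed by different amounts was not tested.

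The number of other T cells was measured beside it. Cd3-positive cells without Nkg7 (12, 83, 37, 18, 89 and 50 cells in the same order) differed by 0.60 between Tumor and Prepuberty on the log2 scale (SE 1.11, adjusted p = 0.605). Of the Cd3-positive cells of both kinds, cytotoxic ones were 14.3%, 6.74%, 9.76%, 0%, 27.0% and 28.6%, the 0 being of 18 cells, which allows a share of up to 16.7%. Prepuberty 1, with 2 of 14 cells, had an interval of 1.78% to 42.8% that spans both tumours. Of the cells with a UMI of Ptprc, the CD45 gene of leukocytes, cytotoxic cells were 2.22%, 6.36%, 4.52%, 0% and 7.92% in the first 5 libraries and 56 of 280 cells in Tumor 2 (interval 15.5% to 25.2%). On this denominator Tumor 1 lay within the intervals of the Prepuberty libraries and of DCIS 1, and Tumor 2 lay above all others. Of the cytotoxic cells, 29 of 44 in Tumor 1 and all 56 in Tumor 2 had a UMI of Ptprc and could count. The rule needs molecules to be caught, and with every kept cell thinned to 1000 UMIs it found 0, 4, 3, 0, 23 and 41 cells.

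The 120 cells split along lineage genes. Cd8a or Cd8b1, the CD8 co-receptor chains, had a UMI in 36 cells, all of them Cd3-positive, and Ncr1 was seen in 41 cells, of which 34 were Cd3-negative. No cell had both, and 43 had neither. By library, CD8 genes were seen in 24 of 33 Cd3-positive cells of Tumor 1, 6 of 20 of Tumor 2, 5 of 6 of Prepuberty 2 and 1 of 4 of DCIS 1. Ncr1, itself 1 of the effector genes of the rule, was seen in 4 of 11 Cd3-negative cells of Tumor 1, 28 of 36 of Tumor 2 and 2 of 5 of DCIS 1.

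Tyrobp or Fcer1g had a UMI in all 55 Cd3-negative cells and in 21 of 65 Cd3-positive ones. Among fibroblasts, which were deeper, 0.571% to 9.80% of a library's cells had a UMI of Tyrobp and 1.61% to 5.96% one of Fcer1g. Of the cells with CD8 genes in the tumours, 1 of 24 in Tumor 1 and 0 of 6 in Tumor 2 had either adaptor. The Cd3-positive class of Tumor 2 was mixed in this respect. It held 7 cells with Ncr1, and over them Cd3d was seen in 6, Cd3g in 4, Cd3e in 1 and the T-cell receptor alpha constant gene Trac in 0. In Tumor 1 no Cd3-positive cell had a UMI of Ncr1 (0 of 33, which allows up to 9.09% of cells with a UMI, for counting error only). Cd4, the co-receptor of helper T cells, had a UMI in 2 of 65 Cd3-positive cells, and Foxp3, the factor of regulatory T cells, in 0 of 120 cells (up to 2.5% with a UMI). Cells that express these genes below detection are not counted. Among the other Cd3-positive cells of the series, those without Nkg7, Cd4 had a UMI in 33 of 289 and Foxp3 in 15. Trdc, the delta receptor constant gene of gamma-delta T cells, was seen in 17 of 120 cells, in both Cd3 classes.

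**Figure D2:**
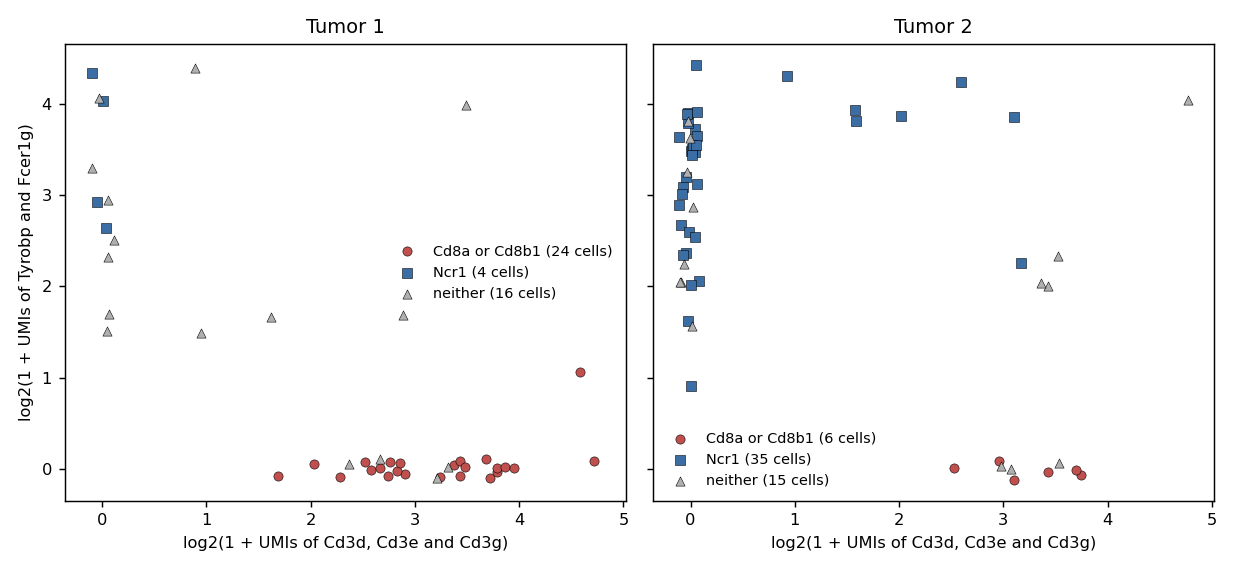
Each point is 1 cytotoxic cell of Tumor 1 (left) or Tumor 2 (right), with log2(1 + UMIs) of the Cd3 genes on the x axis and of Tyrobp and Fcer1g on the y axis, jittered by up to 0.12 on each axis. Cells with CD8 genes (circles) lie towards the bottom right, cells with Ncr1 (squares) mostly higher, and 7 squares of Tumor 2 lie to the right of 0.

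Detection of a receptor beta chain transcript was common in both classes, although the level of Trbc2 was called higher in Cd3-positive cells (below). Trbc1 or Trbc2 had a UMI in 65 of 65 Cd3-positive and 47 of 55 Cd3-negative cells, while Trac was seen in 34 and 2. Mature NK cells are known to transcribe the beta constant region without a rearranged receptor. Trbc1 had 31 UMIs in the Cd3-negative cells of Tumor 1 and 127 in those of Tumor 2, and none in the fibroblasts of either tumour library. Trbc2 is less informative in Tumor 2, where 56.1% of fibroblasts had a UMI of it (135 CPM, against 392 in the Cd3-negative cells), compared with 9.80% in Tumor 1.

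Cd3-positive and Cd3-negative cytotoxic cells were compared within Tumor 1 and Tumor 2, the only libraries with at least 10 cells of each class. UMIs were summed per library and class and tested with edgeR's quasi-likelihood test with the library as a block. Of the genes tested, 5 of 14 in the T-lineage list and 3 of 10 in the interferon-response list were higher in Cd3-positive cells, and 4 of 11 in the NK list and Ccl5 were higher in Cd3-negative cells. Cd8a and Cd8b1, among those 5, had no UMI in Cd3-negative cells and could only be called higher. Of 1168 genes tested, 27 passed an adjusted p of 0.05 (2.31%), 15 of them higher in Cd3-positive cells (1.28%) and 12 lower (1.03%), and the median log2 fold change of all tested genes was 0.02. The sums were small, from 23567 UMIs (Cd3-negative, Tumor 1) to 107487 (Cd3-positive, Tumor 1). Calls depended on the tool and on the cut. DESeq2 passed 2 genes, Ifi27l2a and Trbc2, and no gene passed when Cd3-positive cells were set by Cd3e or Trac (69 at an unadjusted p under 0.05) or when 2 effector genes were asked for (57 at that level), whereas 34 passed without cells that carried genes of other cell types. The 27 genes kept their direction in each alternative in which they were tested.

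**Figure D3:**
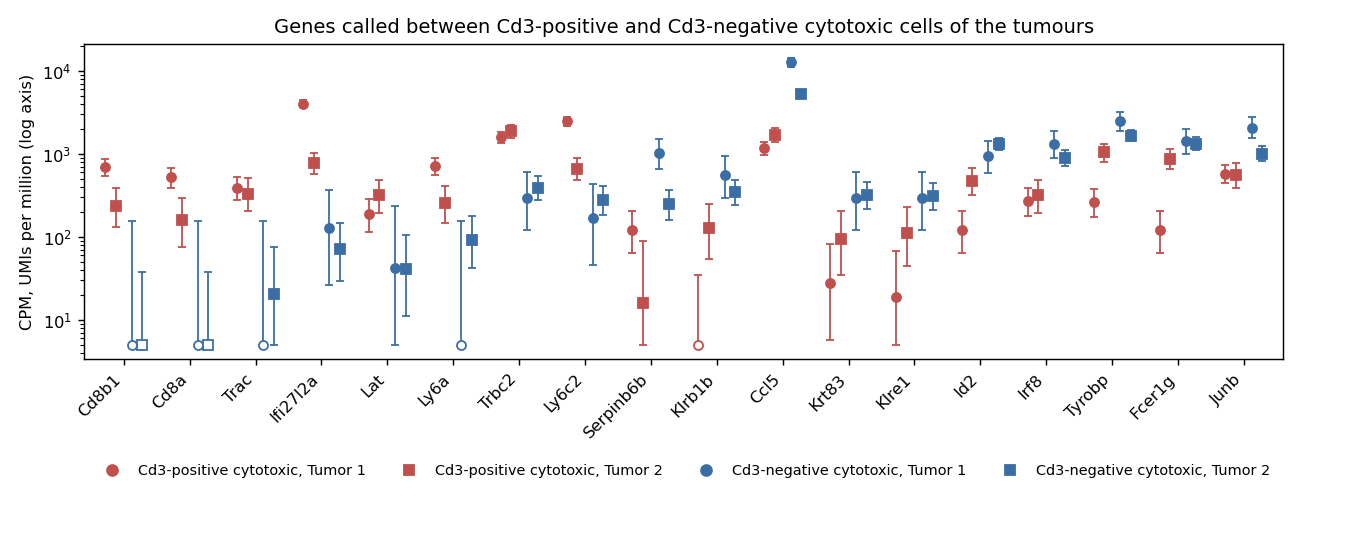
CPM (log y axis) of 18 called genes (x axis) in Cd3-positive (red) and Cd3-negative (blue) cytotoxic cells of Tumor 1 (circles) and Tumor 2 (squares). Bars are exact 95% Poisson intervals for counting error, cut off below 5, and open symbols at 5 stand for 0 UMIs. The 8 genes from Cd8b1 to Ly6c2 are higher in red in both libraries, and the 10 from Serpinb6b to Junb higher in blue.

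Of the 27 genes of the T-cell receptor complex and T lineage, 14 were tested, 5 rose in Cd3-positive cells (Cd8b1, Trbc2, Cd8a, Trac and Lat) and none fell. The list's median was 1.00, and it stayed at 1.00 with genes at 0 set to their bound. Cd8b1 had 74 UMIs in Cd3-positive cells of Tumor 1 and 15 in those of Tumor 2, and 0 in Cd3-negative cells of both, which makes it at least 21.0-fold higher against a limit of 3 counts over the Cd3-negative cells. For Cd8a the UMIs were 56, 10, 0 and 0 (at least 15.6-fold). Both genes passed the filter on low counts through the Cd3-positive cells alone and could only be called higher there. Trac had 42 and 21 UMIs in Cd3-positive and 0 and 2 in Cd3-negative cells of Tumor 1 and Tumor 2 (log2 fold change 4.31, SE 0.71). Lat, the scaffold that relays receptor signals, had 20 and 20 UMIs against 1 and 4 (2.75, SE 0.63, adjusted p = 0.00424 by edgeR). Cells were called Cd3-positive on genes of this same complex, and Cd3-positive cells were somewhat deeper (median 2362 against 1763 UMIs in Tumor 1 and 2582 against 2062 in Tumor 2). After thinning to 1000 UMIs a cell, Cd8a was still seen in 53.1% of 32 Cd3-positive cells of Tumor 1 and in 0 of 9 Cd3-negative ones. In Tumor 2 it was seen in 2 of 20 (interval 1.23% to 31.7%) and in 0 of 33 (which allows up to 9.09%), so the ranges overlap.

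Of the 33 genes of NK receptors and NK lineage, 11 were tested, none rose in Cd3-positive cells and 4 fell (Tyrobp, Klrb1b, Fcer1g and Klre1), with a list median of -1.33. Tyrobp had 28 and 66 UMIs in the Cd3-positive and 58 and 161 in the Cd3-negative cells of Tumor 1 and Tumor 2, which is 260 and 1046 against 2461 and 1659 CPM (log2 fold change -1.77, SE 0.36). Klrb1b, an inhibitory lectin-like receptor, had 0 and 8 against 13 and 34 UMIs (-2.91, SE 0.60). Klre1, another receptor of the NK complex, had 2 and 7 against 7 and 30 (-2.19, SE 0.57). The groups did not overlap in CPM for any of these genes, which adds little, since they were picked as called. The share of such genes among all genes tested was not counted. Id2, a regulator that NK cells and other innate lymphocytes need, was the only lineage transcription factor called of 4 tested, with 13 and 30 against 22 and 128 UMIs (-2.02, SE 0.41).

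Among 7 tested genes of granules and killing that were not in the rule, 1 was called. Serpinb6b, a serine protease inhibitor, had 13 and 1 UMIs in Cd3-positive and 24 and 24 in Cd3-negative cells (log2 fold change -3.12, SE 0.50), and 6 of the 7 had a negative sign. Among secreted effectors Ccl5, a chemokine for T cells and NK cells, was the only call of 4 tested. It had 126 and 108 UMIs in Cd3-positive cells and 299 and 513 in Cd3-negative cells, or 1172 and 1711 against 12687 and 5287 CPM (-2.48, SE 0.20, adjusted p = 1.50e-15 by edgeR). Levels in Cd3-negative cells were above those in Cd3-positive cells in both tumours. In fibroblasts of the same libraries it reached 37.8 and 42.8 CPM. Outside the tumours Ccl5 was seen in 18.6% to 47.7% of fibroblasts, and the cytotoxic cells had 837 CPM in Prepuberty 2 and 2082 in DCIS 1, against 81.5 and 286 in the fibroblasts there.

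Of 23 interferon-response genes 10 were tested and 3 rose in Cd3-positive cells. Ifi27l2a had 434 and 49 UMIs against 3 and 7 (log2 fold change 4.13, SE 0.40), or 4038 and 776 against 127 and 72.1 CPM. Ly6c2 had 265 and 42 against 4 and 27 (2.27, SE 0.41), and Ly6a had 76 and 16 against 0 and 9 (2.44, SE 0.57). Ly6c2 and Ly6a encode surface proteins known on activated and memory CD8 T cells as well as after interferon. Both tumours showed the same order, but the levels in Cd3-positive cells were higher in Tumor 1 than in Tumor 2 for all 3 genes. Ifi27l2a was also present in fibroblasts (1259 and 636 CPM in Tumor 1 and Tumor 2), far above the Cd3-negative cells.

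Irf8, a transcription factor of NK and myeloid cells, was lower in Cd3-positive cells (29 and 20 against 31 and 87 UMIs, log2 fold change -1.83, SE 0.40), as was the immediate early gene Junb (-1.31, SE 0.35, 1 of 8 tested). No gene passed among 5 tested for tissue residence, 4 for circulation and memory, 3 for checkpoints and activation, 1 chemokine receptor and 7 for proliferation. At an unadjusted p under 0.05 the fit held 123 genes. Cst3 also passed (405 and 13 against 2 and 22 UMIs), but 392 of its UMIs came from the single cell of Tumor 1 described above, and without cells deeper than 3 times their library's median its log2 fold change was 0.05 (SE 0.53, adjusted p = 0.986 by edgeR).

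The effector genes of the rule were unevenly spread. Gzma, Gzmb and Prf1 were seen in 36, 33 and 36 of 120 cells, and 52 cells had none of them and entered the rule through Ctsw, Klrd1 or Ncr1. Those without any were 37 of 65 Cd3-positive and 15 of 55 Cd3-negative cells. All 3 together were seen in 8 cells, all Cd3-negative and from the tumours.

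Gzma (chr13:113093825-113100981), granzyme A, had 15 UMIs in 5 of 33 Cd3-positive cells of Tumor 1 and none in 20 of Tumor 2, against 62 UMIs in 5 of 11 Cd3-negative cells of Tumor 1 and 326 in 16 of 36 of Tumor 2. Outside the tumours it had 4 UMIs in Prepuberty 1, 3 in Prepuberty 2, 26 in DCIS 1 and 3 in DCIS 2. Gzmb, granzyme B, had 15 and 11 UMIs in Cd3-positive and 18 and 64 in Cd3-negative cells of Tumor 1 and Tumor 2, and 0, 3, 1 and 0 in the other libraries in the same order. Of the 64, 39 were in 1 cell with 8638 UMIs. Prf1 had 7 and 12 against 11 and 51 UMIs, with 1 UMI in Prepuberty 2 and none in the other 3 libraries. In DCIS 1 Gzma was seen in 6 of 9 cells, and Prf1 was not detectable there at 35549 UMIs in all.

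Gzmc, a granzyme of the same cluster as Gzmb that the rule did not use, had no UMI outside the tumours. In the tumours it had 1 UMI in 1 Cd3-positive cell of Tumor 1 and 60 UMIs in 3 of Tumor 2, 45 of them in a single cell, against 21 UMIs in 2 and 34 in 6 Cd3-negative cells. Gzmk, known from memory CD8 T cells, had 2 UMIs over both tumours. Ifng, the interferon gamma gene, had 5 UMIs in each Cd3 class of Tumor 2 and none in Tumor 1 or outside the tumours.

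**Figure D4:**
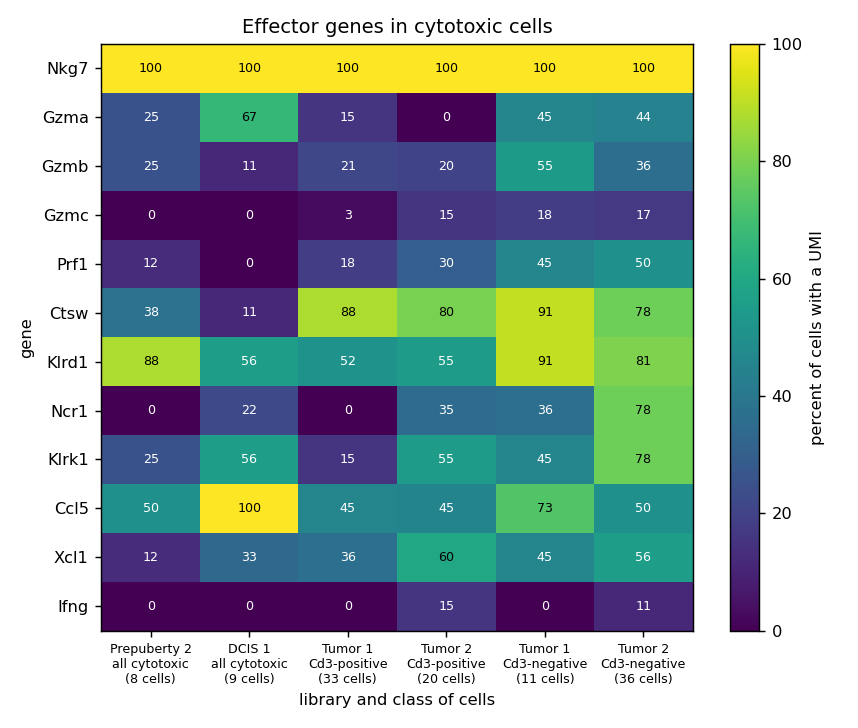
Percent of cells with a UMI (colour and number in each field) of 12 effector genes (y axis) in cytotoxic cells of Prepuberty 2, DCIS 1 and the 2 Cd3 classes of Tumor 1 and Tumor 2 (x axis, with cell numbers). Nkg7 is at 100 by the rule, Prf1 runs from 0 in DCIS 1 to 50 in Cd3-negative cells of Tumor 2, and Gzma is at 0 in Cd3-positive cells of Tumor 2.

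Xcl1, the chemokine that draws cross-presenting dendritic cells, was found in both Cd3 classes of both tumours. It had 40 UMIs in 12 of 33 Cd3-positive cells of Tumor 1 and 140 in 12 of 20 of Tumor 2, and 28 in 5 of 11 and 128 in 20 of 36 Cd3-negative cells. Of the 140, 59 were in 1 cell. The other libraries had 1, 1, 6 and 0 UMIs in Prepuberty 1, Prepuberty 2, DCIS 1 and DCIS 2. No fibroblast of any library had a UMI of Xcl1 (chr1:164931644-164935527).

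The closest cells of the series were the other Cd3-positive cells, those without Nkg7, and the cytotoxic Cd3-positive cells were compared with them within Tumor 1 (33 against 89 cells) and Tumor 2 (20 against 50). Cd8a, Cd8b1, Xcl1 and Ly6c2 were higher in the cytotoxic cells, and Il7r, Icos, Tnfrsf4, Tcrg-C1 and Trdc were lower. Of 1814 genes tested by edgeR's quasi-likelihood test with the library as a block, 213 passed (11.7%), 72 of them higher (3.97%) and 141 lower (7.77%) in cytotoxic cells. The comparison class was not clean. Neutrophil and fibroblast genes such as S100a8, S100a9 and Col1a2 led the lower calls, all 3 tested neutrophil and all 3 tested fibroblast markers being called, and 18 of 89 and 13 of 50 of the other Cd3-positive cells had more than 5 UMIs over Col1a1, Col3a1, S100a8, S100a9, Lyz2, Krt8, Krt18 and Cd74, against 1 of 33 and 0 of 20 cytotoxic ones. Without those cells of both classes, 28 of 1339 genes passed, 9 higher and 19 lower, and 24 of the 28 had passed before, the others being Tyrobp, Gm2a, Bcl2a1b and Pdcd1. Their part in the other calls was not tested, so the genes below are given with both fits where they were tested in both.

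**Figure D5:**
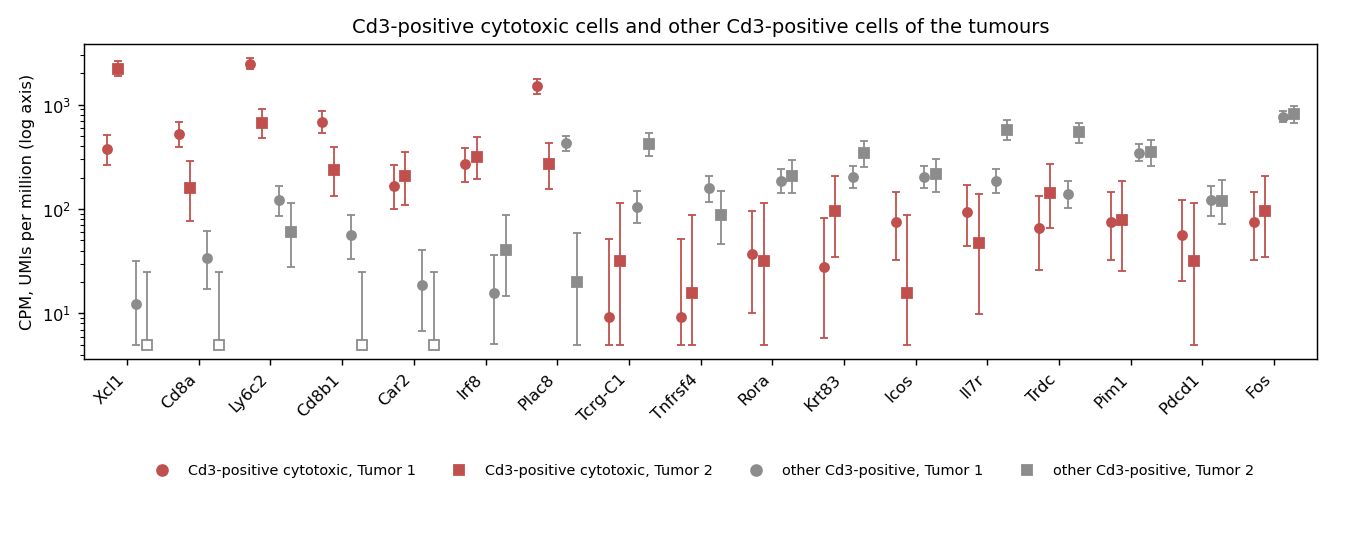
CPM (log y axis) of 17 genes (x axis) in Cd3-positive cytotoxic cells (red) and other Cd3-positive cells (grey) of Tumor 1 (circles) and Tumor 2 (squares), all cells of each class included. Bars are exact 95% Poisson intervals for counting error, cut off below 5, and open symbols at 5 stand for 0 UMIs. Xcl1 to Irf8 are higher in red in both libraries, and Tcrg-C1 to Fos higher in grey.

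Xcl1 had 372 and 2218 CPM in cytotoxic cells of Tumor 1 and Tumor 2 and 12.4 and 0 in the other Cd3-positive cells (log2 fold change 6.55, SE 0.55, and 5.94 without the cells with genes of other types). In Tumor 2, 1 cytotoxic cell held 59 of its UMIs. Cd8a had 521 and 158 against 34.1 and 0 (4.06, SE 0.52, and 3.31), and Cd8b1 had 688 and 238 against 55.8 and 0 (3.86, SE 0.48, and 3.11). CD8 genes were thus present in some cells without Nkg7, in 13 of 89 in Tumor 1. Ly6c2 had 2465 and 665 against 121 and 60.3 (3.97, SE 0.37, and 3.37). The cytotoxic cells of both libraries lay above the other Cd3-positive cells for all 4 genes, which were picked as called. Irf8, Car2, Plac8 and the long noncoding transcript AW112010 were also higher in both fits. Tyrobp, the adaptor of NK receptors, had a log2 fold change of 0.74 with all cells (adjusted p = 0.223 by edgeR) and was called higher in cytotoxic cells without the cells with genes of other types (4.14, adjusted p = 0.00793). In Tumor 1 it had a UMI in 3 of 33 Cd3-positive cytotoxic cells. One of them held 16 of the 28 UMIs, and another, which held 11, was among the cells left out of the fit that called it. In Tumor 2 Tyrobp had a UMI in 9 of 20 such cells, none of them left out. The 7 with Ncr1 held 7, 11, 11, 14, 7, 2 and 8 UMIs, and the others 5 and 1. Whether the call holds without cells with Ncr1 was not tested.

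Ccl5 (1172 and 1711 against 282 and 20.1 CPM, log2 fold change 3.25, SE 0.36), Cd7, Cst7 (cystatin F, an inhibitor of the proteases that activate granzymes), Serpinb9 (an inhibitor of granzyme B), Lck and Txk (kinases of receptor signalling), Il2rb (the IL-2 and IL-15 receptor beta chain), Cd27 and Tnfrsf9 were called higher with all cells and did not pass, or were not tested, without the cells that carried genes of other types. For Cst7 the UMIs were 15 and 12 in the cytotoxic and 8 and 7 in the other Cd3-positive cells (2.19, SE 0.55, adjusted p = 0.00110 by edgeR).

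The effector lists did not move one way. Of 5 secreted effectors tested, 2 were higher (Xcl1 and Ccl5) and 2 lower (Ccl3 and Ccl4, chemokines of activated lymphocytes and macrophages), and of 6 granule genes tested, 2 were higher (Cst7 and Serpinb9) and 1 lower (Lamp1, a protein of the lysosome and granule membrane). Of 14 interferon-response genes tested, Ly6c2 and Isg20 were higher and Ly6a lower (-1.15, SE 0.32). Ccl3 had 0 and 1 UMIs in cytotoxic and 72 and 12 in the other Cd3-positive cells of Tumor 1 and Tumor 2 (log2 fold change -4.70, SE 0.92), where 3 of 89 and 2 of 50 cells held them. Ccl4 had 4 and 7 against 57 and 54 UMIs (-1.97, SE 0.49), 50 of the 54 in 1 cell. Lamp1 had 7 and 6 against 74 and 29 (-1.54, SE 0.48), and its sign turned under the thinned rule (0.47). None of these 3 was tested without the cells that carried genes of other types.

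On the lower side, Il7r, the IL-7 receptor of naive and memory T cells, had 93.0 and 47.5 CPM in cytotoxic cells against 186 and 576 in the other Cd3-positive cells (log2 fold change -2.11, SE 0.48, and -2.68 without cells with genes of other types). Icos and Tnfrsf4 (OX40), costimulatory receptors of helper and regulatory T cells, had log2 fold changes of -2.09 and -3.46 (-2.70 and -4.11 in the other fit). Tcrg-C1, a gamma chain constant gene, had 1 and 2 UMIs against 34 and 63 (-3.63, SE 0.66, and -4.18), and Trdc 7 and 9 against 45 and 81 (-1.61, SE 0.47, and -2.20). Rora, a factor of innate-like lymphocytes, was lower in both fits as well. Fos had 8 and 6 UMIs against 248 and 121 (-3.30, SE 0.45), and 7 of 16 tested immediate early and stress genes were called lower, but none of 10 tested was called without the cells that carried genes of other types.

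Pdcd1, which encodes the checkpoint receptor PD-1, was seen in few cytotoxic cells. It had 6 UMIs in 5 of 33 Cd3-positive cells of Tumor 1, 2 in 2 of 20 of Tumor 2, 0 in 11 and 5 in 3 of 36 Cd3-negative cells, and 2 UMIs in Prepuberty 2 and 3 in DCIS 1. The other Cd3-positive cells had 39 UMIs in 18 of 89 cells of Tumor 1 and 18 in 10 of 50 of Tumor 2. The log2 fold change was -1.44 (SE 0.60) and did not pass edgeR's test (adjusted p = 0.113) with all cells, and was -2.10 (adjusted p = 0.0261) without cells with genes of other types. Other checkpoint genes had few UMIs in the tumour cytotoxic cells. Lag3 had 5 UMIs, Havcr2 had 4, Tigit had 1 and Ctla4 had 5, over 100 cells and 291213 UMIs.

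Genes were compared between states only with an extension, since no Prepuberty or DCIS library held 10 cytotoxic cells. With a minimum of 5 cells, Prepuberty 2 (8 cells) and DCIS 1 (9 cells) entered beside both tumours, and each lone library was assumed to vary like the tumours. Over all cytotoxic cells edgeR called 40 of 1795 genes between DCIS and Prepuberty (2.23%), 82 between Tumor and DCIS (4.57%, with 1.50% higher and 3.06% lower in tumours) and 4 between Tumor and Prepuberty (0.223%). Of those 40, 20 had no UMI in Prepuberty 2, and of the 82, 15 had none in DCIS 1, so these could be called in 1 direction only. Single cells carried many of the calls. Of the 82 genes called between Tumor and DCIS, 67 had UMIs in DCIS 1, and 56 of those had over 50% of them in 1 cell. One cell of DCIS 1 with 12102 UMIs, 791 of Ccl2 and 119 of Dcn, a fibroblast gene, beside 1 of Nkg7 and 2 of the Cd3 genes led these, and without cells deeper than 3 times the median the 3 counts were 0, 5 and 0 (117, 130 and 86 at an unadjusted p under 0.05).

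Xcl1 was 1 of the 4 genes called between Tumor and Prepuberty, the others being Bcl2, Vim and Cd74. Bcl2, a survival factor, was seen in 21 of 44 cells of Tumor 1 and 41 of 56 of Tumor 2, and in 0 of 8 of Prepuberty 2 and 2 of 9 of DCIS 1, while 6.45% to 17.5% of fibroblasts had a UMI of it. Cd74 rested on 139 of 145 UMIs from 1 cell of Tumor 1. Bcl2, Vim and Cd74 had no UMI in Prepuberty 2, so they could only be called higher in tumours. Xcl1 had 44.1, 169, 519 and 1673 CPM in Prepuberty 2, DCIS 1, Tumor 1 and Tumor 2. The value of Prepuberty 2, the only Prepuberty library in the fit, was 1 UMI. Prepuberty 1, which was not in the fit, had 1 UMI too, of 5410 UMIs over 2 cells. These 4 calls did not hold without cells deeper than 3 times the median, nor with the libraries of the 2 states alone, whereas 3 of them were tested without cells with genes of other types and all 3 passed there.

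Within Cd3-positive cells, Tumor against Prepuberty 2 (6 cells) gave 13 calls among 1129 genes (1.15%). Of these 13, 9 had no UMI in Prepuberty 2, where these cells summed to 17566 UMIs, so those passed the filter on low counts through the tumours alone and could only be called higher there. The other 4 were also higher in tumours. In Tumor 1, 4 of the 13 had over 50% of their UMIs in 1 cell, among them Cd74. S100a6, a calcium-binding protein, had 0 UMIs in Prepuberty 2 and 45 and 110 in Tumor 1 and Tumor 2, at least 5.32-fold higher against a limit of 3 counts. Tmsb4x, an actin-binding peptide, had 6490 CPM in Prepuberty 2 and 21826 and 18362 in the tumours (log2 fold change 1.74, SE 0.37). Rgs1, a regulator of chemokine receptor signals that is known from tissue T cells, had 0, 42 and 43 UMIs (at least 2.92-fold).

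Within Cd3-negative cells, Tumor against DCIS 1 (5 cells) gave 30 calls among 410 genes (7.32%), 24 higher (5.85%) and 6 lower (1.46%) in tumours. The 5 cells of DCIS 1 summed to 16197 UMIs, 7286 of them from 1 cell, and 14 of the 22 called genes with UMIs there had over 50% of them in 1 cell. The other 8 had none there and could only be called higher in tumours. Without that cell the library was under the minimum of 5, so no fit without it was made. Actb had 309 CPM in DCIS 1 against 4583 and 7038 in Tumor 1 and Tumor 2 (log2 fold change 4.45, SE 0.61), Cd52 had 370 against 3055 and 3215 (3.27, SE 0.63), and the lymphocyte cytoskeletal genes Coro1a and Arhgdib had 0 UMIs in DCIS 1 and were at least 3.89-fold and 3.98-fold higher. Xcl1 rose as well (123 against 1188 and 1319 CPM, 3.51, SE 0.93). The lower genes were led by the epithelial gene Krt18 (47 UMIs in DCIS 1, 46 of them in 1 cell) and by Cd24a (28 UMIs, 27 in 1 cell). Whether any gene changed differently between the Cd3 classes over the states could not be fitted.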

How the data were processed

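Single-cell RNA-seq libraries of 3 states with 2 libraries each were analysed. The authors deposited raw UMI counts per gene and barcode, as Cell Ranger 3.0.2 filtered matrices per the file headers. The submitters' notes name mm10, and gene positions are from GENCODE annotation of GRCm38. Cells with under 200 genes or with 10% or more mitochondrial UMIs were left out (23835 barcodes, 22244 kept). Scrublet (scanpy 1.11.5) marked no member. Members and gene lists were chosen with earlier results of these data known. UMIs were summed per library and class and tested with edgeR 4.0.16 in R 4.3.3 (TMM, filterByExpr, quasi-likelihood test, Benjamini-Hochberg over the genes tested, threshold 0.05), leaving out genes of the rule and the Cd3 genes. Cell numbers of 8 classes were tested likewise with kept cells as the offset. DESeq2 1.42.0 was an alternative. Genes were named from 12 lists (the up to 4 smallest p each) and as the 8 largest called changes each way with at least 20 UMIs, with Pdcd1. Others named in the text were picked after their values were seen. Tested on simulated data, the Cd3 comparison recovered 19% of 8-fold changes among 1271 genes and 1% of 4-fold ones, and the comparison with other Cd3-positive cells 77% and 41% among 2015 genes. Kept cells held 29652183 to 60741860 UMIs a library, and cytotoxic cells 897 to 160159. One gene of the marker lists is not reported here.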

Additional observations from a re-analysis of the deposited data

How the results depend on the processing

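Cell number limited the comparisons between states, since 4 of 6 libraries held under 10 cytotoxic cells, and on simulated data the Cd3 comparison recovered few changes of 4-fold or 8-fold. The 27 calls between Cd3 classes became 17 with DESeq2 size factors in edgeR, 2 with DESeq2, 12 with no filter on low counts, 7 with a mitochondrial limit of 5%, 0 with 2 or more effector genes and 0 with Cd3e or Trac as the cut. The 213 calls against other Cd3-positive cells became 46 with DESeq2, 419 with no filter (40 higher and 379 lower), 10 with the rule on thinned cells, 28 without cells with genes of other types and 93 with at least 5 cells, and Lamp1 turned from -1.54 to 0.47 under the thinned rule. Of the called genes tested there, 10 of 135 turned their sign under the thinned rule, 6 of 119 without cells with genes of other types and 1 of 189 without deep cells. Between states, 40 calls for DCIS against Prepuberty became 24 with DESeq2 size factors, 5 with DESeq2, 26 with no filter, 0 with 5% mitochondrial UMIs, 0 without deep cells and 4 without cells with genes of other types. The 82 for Tumor against DCIS became 46 with DESeq2 size factors, 25 with DESeq2, 32 with the 5% limit, 5 without deep cells and 10 without cells with genes of other types, and were 93 with no filter (60 shared) and 88 with the 2 states alone (76 shared). In these 2 state comparisons, 1 of 13 and 4 of 42 tested calls turned their sign without cells with genes of other types, and 0 of 20 and 2 of 53 without deep cells. For Tumor against Prepuberty none of the 4 passed with DESeq2 size factors, with DESeq2 (which called 1 other gene), with no filter, with the 5% limit, without deep cells or with the 2 states alone, while 6 passed without cells with genes of other types, among them all 3 of the 4 that were tested there. The causes were not tested. Settings on deep cells, on genes of other types, on Cd3e or Trac and on 5 cells against other Cd3-positive cells were chosen after seeing the data.

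For cell numbers, the log2 ratio of all cytotoxic cells between Tumor and Prepuberty passed the test without Scrublet doublets (3.53), with 2 effector genes (4.19), with the 5% limit (3.55), with TMM factors (3.34) and without cells with genes of other types (3.51), and ranged from 2.79 to 4.99 when each library was left out, passing without Prepuberty 2. That of Cd3-negative cells (3.09 to 7.90 when each was left out) no longer passed with thinned cells (5.26) or with Ptprc-positive cells as the denominator (2.67). In fits with this denominator, cytotoxic cells without a UMI of Ptprc still counted in the numerator, unlike in the shares given earlier. Between DCIS and Prepuberty the ratio of all cytotoxic cells turned to -0.28 with thinned cells, -0.68 with Ptprc-positive cells as the denominator and -0.14 without cells with genes of other types, and ranged from -2.26 to 1.63 when each library was left out (Cd3-positive -5.04 to 0.34, Cd3-negative -0.059 to 4.76). Replicate numbers are shared between states without a stated pairing, and the deviations of same-numbered libraries correlated negatively over 8 cell classes (-0.384 to -0.265). With the replicate number as a block, the Cd3-negative ratio between Tumor and Prepuberty was 4.69 and did not pass. Leaving out a library in the class comparisons, the state fits at 10 cells or with a block, the interaction, and the Cd3 comparison on thinned cells or with receptor genes could not be fitted, for want of cells or residual degrees of freedom.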

Other observations

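Homing genes differed between the Cd3-positive cytotoxic cells of the 2 tumour libraries, as a description without a test. Ccr7, the receptor that guides naive and central memory T cells to lymph nodes, had 42 UMIs in 17 of 33 Cd3-positive cells of Tumor 1 and 1 UMI in 1 of 20 of Tumor 2. It was seen in 5 of 6 Cd3-positive cells of Prepuberty 2 and 2 of 4 of DCIS 1, and in the tumours in 1 of 11 and 0 of 36 Cd3-negative cells. Fibroblasts, with deeper profiles, had it in 3.92% and 0% of cells of Tumor 1 and Tumor 2. Cxcr6, a receptor of T cells and NK cells within tissues, was seen in 5 of 33 Cd3-positive cells of Tumor 1 and 10 of 20 of Tumor 2, and in 9 of 36 Cd3-negative cells of Tumor 2, where 7.89% of fibroblasts also had it. Itgae, the CD103 integrin chain, had 7 and 6 UMIs in Cd3-positive and 0 and 0 in Cd3-negative cells of Tumor 1 and Tumor 2. Itga1, the CD49a chain, had 0 and 6 against 1 and 5. Klrk1, the NKG2D receptor, was seen in 5 of 33 and 11 of 20 Cd3-positive and in 5 of 11 and 28 of 36 Cd3-negative cells, and in no fibroblast of either library.

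Mki67 or Top2a, genes of dividing cells, had a UMI in 4 of 33 and 3 of 20 Cd3-positive and in 3 of 11 and 6 of 36 Cd3-negative cells of Tumor 1 and Tumor 2, and in 8 of 89 and 6 of 50 of the other Cd3-positive cells. Top2a was seen in 13.7% and 40.4% of fibroblasts of the same libraries, which had deeper profiles.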
